A study of Mus musculus with 29 samples.

Results

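The genes described here carry the integrated stress response and the amino acid programme that it controls. They were taken from a list of 36 mouse genes in 5 roles, of which 35 were among the 11959 genes measured and Atf3 was not analysed here. The list was made by function and not from measured values, although earlier results of these data were known when it was made. RNA-seq was performed on 29 samples of 3T3-L1 cells, an established mouse preadipocyte line that turns into fat cells under a hormone cocktail, in 8 groups. Cells received 10 µM KDM5-C70 (C70), an inhibitor of the KDM5 histone demethylases, or DMSO vehicle from day -2, when they were fully confluent, until day 0, and drug was absent afterwards. RNA was taken at day 0 after preadipocyte medium, at days 1 and 2 in differentiation medium with dexamethasone, insulin, IBMX and a PPARγ agonist, and at day 7 after a further period in adipocyte medium with insulin and dexamethasone. Vehicle groups held 3 samples at days 0, 1 and 2 and 4 at day 7, and each C70 group held 4. All groups come from a single immortalised line, and the label calls the cells adipocytes at every day, including day 0. The labels do not say whether samples of a group were separate cultures, so the P values below measure the spread between these samples, which may be technical.

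In the integrated stress response, kinases that sense amino acid shortage, misfolded protein in the endoplasmic reticulum, haem deficiency or viral RNA phosphorylate the translation factor eIF2. General protein synthesis slows, while the mRNA of the transcription factor ATF4 is translated better. ATF4 pairs with C/EBP proteins at a composite DNA site, the C/EBP-ATF response element, and raises genes for amino acid synthesis, amino acid uptake and the charging of tRNAs, together with regulators that feed back on the response. The unfolded protein response of the endoplasmic reticulum shares the kinase PERK with this pathway and also acts through ATF6 and XBP1, which raise chaperones through a different site. Much of this control lies in translation and protein processing, which mRNA counts do not show.

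Promoter sequence from RefSeq on GRCm38.p6 was available for 29 of the 36 listed genes, as the 250 bases before to the 50 bases after each start, and is shown because it holds the sites named after these pathways. The core TGATGNAA, searched on both strands, was present in 12 of the 29 genes, compared with 4.51% of 27025 genes overall and 3.97% of 32851 windows. The 12 were Aars, Asns, Atf3, Chac1, Gars, Herpud1, Iars, Nupr1, Slc7a11, Tars, Trib3 and Yars. This core joins a C/EBP half-site to an ATF half-site and so overlaps with matches to either family. The endoplasmic reticulum stress element, searched on both strands, was present in Hspa5 and Hsp90b1, compared with 0.137% of genes and 0.119% of windows. A match describes the letters in this window only.

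The stretches below are written 5′ to 3′ on the strand of the gene, with matches in capitals, and a core on the opposite strand is printed as its reverse complement. Slc7a11 (chr3:50443632-50443719, minus strand) held 2 facing cores at 66 and 47 bases before its start, and Chac1 (chr2:119351009-119351096, plus strand) and Herpud1 (chr8:94386277-94386364, plus strand) held a core 193 and 112 bases before theirs. In the GENCODE M21 annotation these 3 stretches lie outside exons. The stretches of Nupr1 (chr7:126625562-126625591, minus strand) and Asns (chr6:7693214-7693243, minus strand) precede the RefSeq start but lie in a 5′ untranslated exon of a GENCODE transcript. They are therefore cut to 30 bases, and the 29 bases of Hspa5 (chr2:34772020-34772048, plus strand) were treated in the same way. The stretch of Hsp90b1 (chr10:86705598-86705694, minus strand) lies outside exons.
Slc7a11: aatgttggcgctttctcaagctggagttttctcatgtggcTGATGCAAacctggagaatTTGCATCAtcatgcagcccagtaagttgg
Chac1: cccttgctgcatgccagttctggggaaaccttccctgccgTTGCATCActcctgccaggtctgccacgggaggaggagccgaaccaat
Herpud1: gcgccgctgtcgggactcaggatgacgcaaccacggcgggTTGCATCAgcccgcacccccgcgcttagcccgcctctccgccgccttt
Nupr1: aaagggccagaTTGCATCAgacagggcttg
Asns: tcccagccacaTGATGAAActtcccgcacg
Hspa5: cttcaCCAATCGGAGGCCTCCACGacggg
Hsp90b1: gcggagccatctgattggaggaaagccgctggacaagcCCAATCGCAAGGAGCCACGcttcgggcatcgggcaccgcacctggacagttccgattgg

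**Figure D1:**
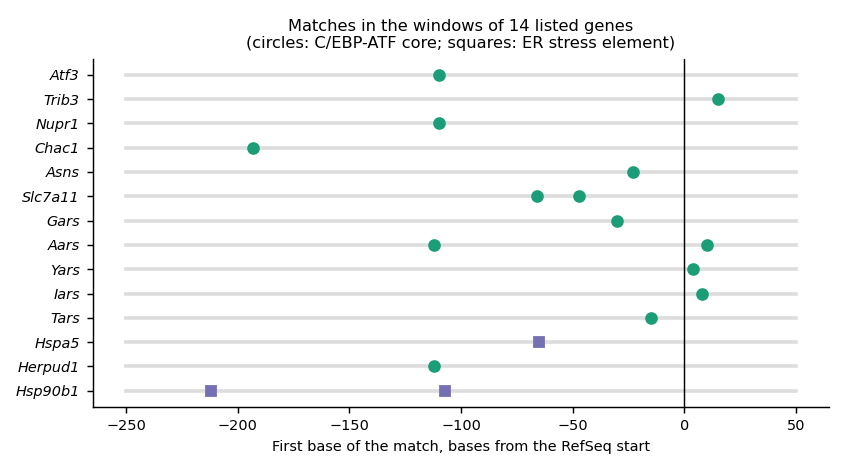
Positions of sequence matches in the promoter windows of the 14 listed genes that hold one, with distance from the start in bases on the x axis and genes on the y axis. Circles stand for the C/EBP-ATF core and squares for the endoplasmic reticulum stress element, and Slc7a11 holds 2 cores close to each other.

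Sequencing depth was 16320275 to 24037170 counts per sample. Levels are given in CPM, in which the counts of each library are brought to a common total, here after TMM scaling. A gene was called when edgeR's quasi-likelihood test gave an adjusted P below 0.05 over all genes and the log2 fold change was more than 0.32 from 0. The pair of replicates that differed most was day 7 vehicle replicates 1 and 2, with a chi-square per degree of freedom of 46.8 against a highest value of 5.45 to 14 in the other groups. Summed over 10 adipocyte markers, the level was 1307 to 1431 CPM in day 0 vehicle samples and 25830 to 30210 CPM in day 7 vehicle samples, so the day 0 cells carried few of the transcripts that define the labelled adipocyte type. Of markers of other cell types, 1 of 6 for macrophages (Cd68, 1.13 to 1.67 CPM in day 0 vehicle and 18.7 to 19.8 CPM in day 0 C70 samples), 1 of 5 for muscle (Des, at most 50.9 CPM), 0 of 5 endothelial and 0 of 4 epithelial ones were among the genes analysed.

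The first question was how these genes move in normal differentiation. In vehicle samples most of them were lower after the first day of differentiation medium and higher again at day 2, though not all returned to their day 0 level. Aars, for example, stood at 747 ± 14.1, 208 ± 4.33 and 347 ± 10.9 CPM at days 0, 1 and 2. From day 0 to day 1, 28 of 35 were called lower, against 27.9% of all genes, and 2 were called higher, against 26.2%, with a median log2 change of -1.02 against 0.0082 over all genes. From day 1 to day 2, 27 were called higher, against 22.3% of all genes, and none was called lower, against 22% (median 0.89). From day 2 to day 7, 15 were called higher and 5 lower (median 0.15), against 26.6% and 26.7% of all genes.

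Regulators and transporters had the lowest role means at day 1 (-2.03 log2 units relative to day 0 for both). Trib3, a pseudokinase that restrains ATF4, went from 87.8 ± 7.43 CPM (SD, n = 3) at day 0 to 2.22 ± 0.385 CPM (n = 3) at day 1, and returned to 27.1 ± 0.622 CPM at day 2 and 68.4 ± 4.42 CPM (n = 4) at day 7. The log2 changes of its 3 steps were -5.30, 3.61 and 1.34. Atf4 itself (chr15:80255184-80257541) went from 258 ± 14.6 to 118 ± 9.94 CPM and back to 249.9 ± 9.88 CPM at day 2. Slc7a11, the light chain of the cystine/glutamate antiporter, went from 8.56 ± 0.758 CPM to between 0 and 0.137 CPM, a fitted change of -6.68 that rests on 5 counts and ranged from -7.33 to -3.82 over its alternatives. These 3 genes thus shared a minimum at day 1 and a rebound at day 2.

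Some members departed from the day 1 drop or from the day 2 rise. From day 0 to day 1, 4 were fitted above 0, namely Xbp1, Mthfd2, Psat1 and Hspa5, and the last 2 were not called. Xbp1, the transcription factor of the unfolded protein response, rose at each step, with log2 changes of 1.04, 1.04 and 0.77. Mthfd2, a mitochondrial folate enzyme, rose as well, by 0.60, 0.99 and 1.75. Nupr1, a small stress-induced nuclear protein, differed little between days 0, 1 and 2 (log2 changes of -0.11 and -0.018, neither called) and then rose by 1.92 between days 2 and 7. Aldh1l2, another mitochondrial folate enzyme, fell by 3.46 at day 1, was not called between days 1 and 2 (0.18) and rose by 2.17 up to day 7. All 12 tRNA synthetases were lower at day 1 than at day 0 by their fitted value, 11 of them called (27.9% of all genes), and 11 were called higher at day 2 (22.3%). None was called from day 2 to day 7, when 26.6% of all genes were called higher and 26.7% lower. The 4 endoplasmic reticulum genes all rose from day 2 to day 7, against 26.6% of all genes. Herpud1, which takes part in the degradation of misfolded endoplasmic reticulum proteins, rose by 2.46, and Hspa5, the chaperone BiP, rose by 0.79.

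**Figure D2:**
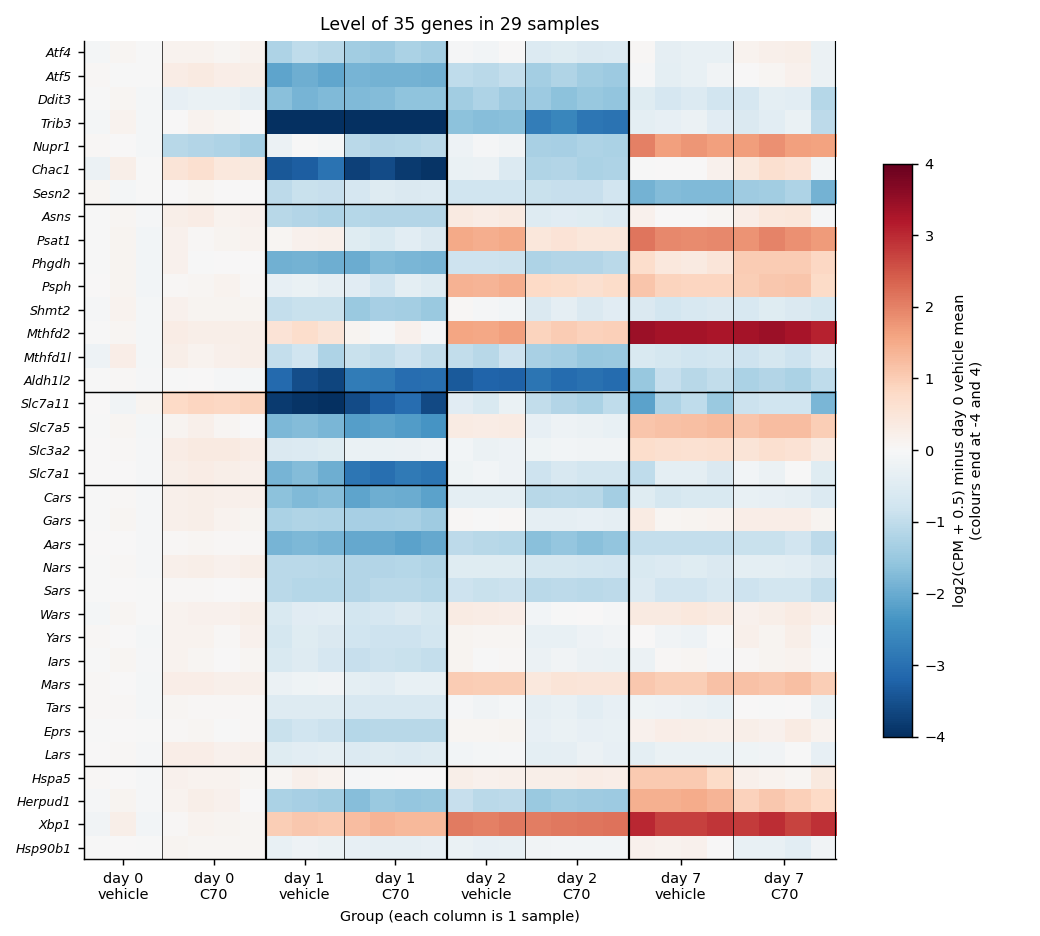
Level of 35 genes (rows) in 29 samples (columns), as log2(CPM + 0.5) minus the mean of the day 0 vehicle samples, with colours ending at -4 and 4 and genes ordered by role. Most rows are lowest at day 1, and at day 2 the C70 columns are lower than the vehicle columns for most rows.

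**Figure D3:**
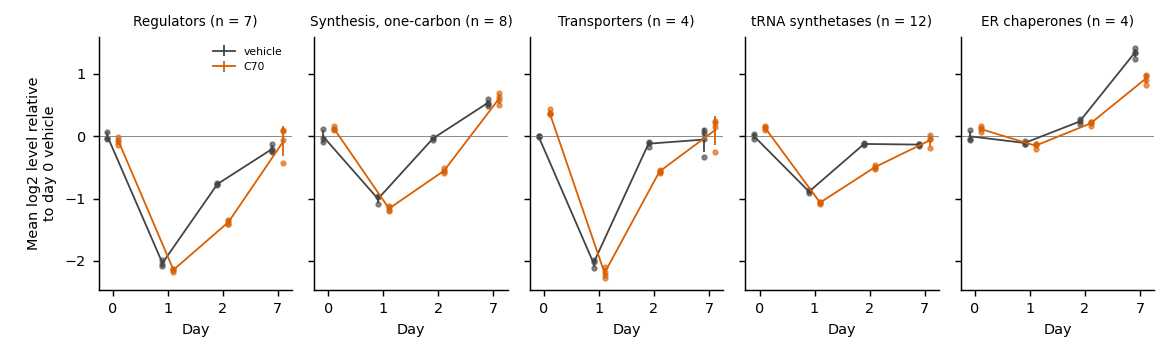
Mean log2 level of each role relative to day 0 vehicle samples, plotted by day for vehicle and C70. Points are samples, lines join group means and bars are the SD. At day 0 the C70 mean of the transporters is 0.38, at day 2 the C70 means of all roles but the endoplasmic reticulum genes lie well below those of vehicle, and at day 7 the endoplasmic reticulum genes stand at 1.34 in vehicle and 0.92 in C70 samples.

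The second question was what a C70 exposure that ended at day 0 does to these genes. At day 0 most members were slightly higher in C70 samples, with 32 of 35 fitted values above 0, and 14 members had an adjusted P below 0.05 (19.8% of all genes), of which 4 were called. By contrast, 8 were called lower at day 1 and 23 at day 2, and by day 7 most lay within the fold threshold of vehicle, when 3 endoplasmic reticulum genes were lower. At day 0, C70 samples had 3 members called higher (5.89% of all genes were) and 1 called lower (3.09%), and the median log2 fold change was 0.12. Upper-quartile scaling made these counts 2 and 2, and over all genes it moved the share of called genes that were higher from 65.6% to 59.2%. At day 1, 3 were called higher (13.6% of all genes) and 8 lower (7.8%), with a median of -0.15. At day 2, none was called higher (16.9% of all genes) and 23 were called lower (13.6%), with a median of -0.40. By day 7, 4 were called higher (14.3% of all genes) and 3 lower (4.85%), with a median of 0.050. A fit to the day 7 samples alone called 1 higher and 3 lower. Over all genes that fit moved the share of called genes that were higher from 74.6% to 72.5%. The median over all genes lay between -0.0060 and 0.0038 in these comparisons.

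The sample values were compared as well. At day 0, all C70 samples lay above all vehicle samples for 19 of 35 members (18% of all genes) and below them for 2 (16%). This had turned at day 1, when all C70 samples lay below all vehicle samples for 22 members (23.8% of all genes) and above them for 7 (24.4%). At day 2 they lay below for 29 members (29% of all genes) and above for 2 (28.2%). At day 7 they lay below for 4 members (12.8% of all genes) and above for 1 (16.5%), so that for most members the groups then overlapped. Ddit3, Nars, Sars, Iars, Tars, Lars and Xbp1 were called on no day. Chac1, Phgdh, Slc7a11 and Slc7a1 were called higher on some days and lower on others.

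The change in the C70 effect between successive days was tested as an interaction. Between days 0 and 1 the effect was called lower for 14 members (5.23% of all genes) and higher for 2 (8.68%), Sesn2 and Aldh1l2. Between days 1 and 2 it was called lower for 11 members (6.49% of all genes) and higher for 1 (7.36%), Slc7a1. Of those called lower here, only Psat1, Cars and Mars had also been called lower between days 0 and 1. Between days 2 and 7 it was called higher for 26 members (11.9% of all genes) and lower for 2 (9.04%), Hspa5 and Hsp90b1.

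Cell state moved with these differences. At day 2 the 10 adipocyte markers summed to 24230 to 25170 CPM in vehicle and 13840 to 15430 CPM in C70 samples, and 10 preadipocyte and fibroblast markers summed to 8545 to 8932 CPM in vehicle and 13870 to 15300 CPM in C70 samples. At day 1 the adipocyte sum was 5365 to 5674 CPM in vehicle and 3387 to 3515 CPM in C70 samples. By day 7 it was 25830 to 30210 CPM in vehicle and 27420 to 30090 CPM in C70 samples, while the preadipocyte sum was 5615 to 7034 CPM and 10960 to 12770 CPM. The part of these shifts in the results was not tested, and in bulk RNA fewer cells of a type and less RNA per cell cannot be told apart.

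**Figure D4:**
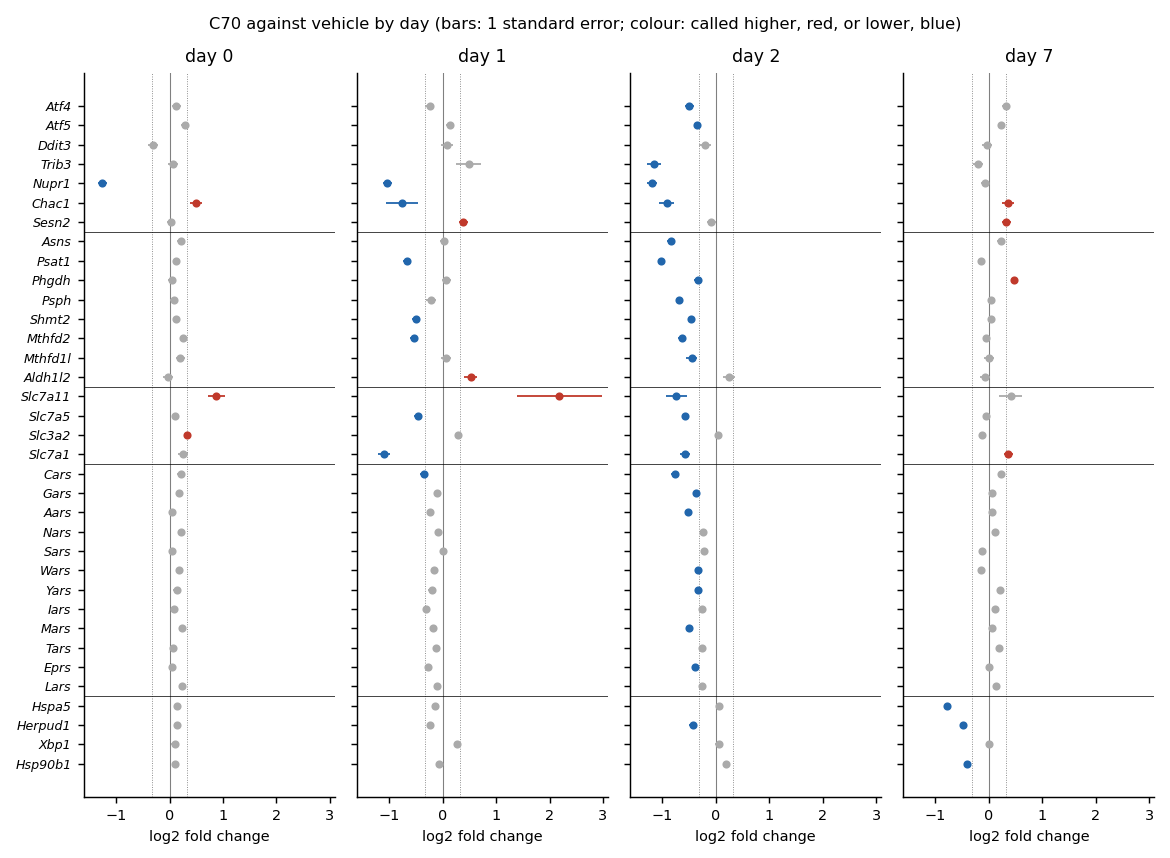
Log2 fold change of C70 over vehicle for 35 members at days 0, 1, 2 and 7, with bars of 1 SE and dotted lines at the fold threshold. Red marks members called higher and blue members called lower, and the day 2 panel holds 23 blue and no red bars.

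Among the 7 regulators, Nupr1 (chr7:126623249-126630861) was called lower at days 0, 1 and 2. At day 0 it stood at 28.1, 27.5 and 25.95 CPM in vehicle samples and at 12.5, 11.8, 11.2 and 10.2 CPM in C70 samples. Day 1 values were 22.95, 26.8 and 25.9 CPM in vehicle and 12.5, 11.9, 12.015 and 12.7 CPM in C70. At day 2 they were 23.7, 26.1 and 24.8 CPM against 10.8, 10.5, 11.1 and 11.01 CPM. On these 3 days every C70 sample thus lay below every vehicle sample, at about the same level each day. The log2 fold changes were -1.26 (SE 0.087, adjusted P = 2.7e-12), -1.04 (SE 0.088, 7.24e-11) and -1.20 (SE 0.090, 2.3e-12). Day 7 levels were higher and overlapped, at 112, 84.9, 93.0 and 86.1 CPM in vehicle and 88.0, 98.7, 86.0 and 83.7 CPM in C70 samples. Nupr1 was the sole member called lower at day 0, and the change of its C70 effect between days 2 and 7 was 1.12 (adjusted P = 4.6e-09).

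Chac1 (chr2:119351229-119354381) encodes an enzyme that degrades glutathione, and it was the member called on all 4 days, in both directions. At day 0 it stood at 16.7, 23.4 and 19.7 CPM in vehicle and 28.2, 31.2, 26.4 and 26.1 CPM in C70 samples, a log2 fold change of 0.49 (SE 0.117, adjusted P = 0.00277) with no overlap. Day 1 levels were near the lower end of the range, at 1.41, 1.55 and 2.12 CPM in vehicle and 1.03, 1.18, 0.938 and 0.827 CPM in C70. That difference of -0.76 (SE 0.306, adjusted P = 0.0467) passed narrowly and was lost in 15 of 39 alternative analyses. Without vehicle replicate 2 or 3 or C70 replicate 1, 3 or 4 of that day the adjusted P was 0.0673 to 0.218. The order held at day 2, when the vehicle samples stood at 16.2, 16.6 and 13.4 CPM and the C70 samples at 8.27, 8.55, 7.96 and 8.04 CPM (-0.91, SE 0.138, adjusted P = 1.75e-06). At day 7 the vehicle samples had 19.4, 20.1, 19.8 and 22.3 CPM, and the C70 samples had 26.7, 31.4, 28.8 and 18.4 CPM. There 3 C70 samples were above all vehicle samples and replicate 4 was below them (0.36, SE 0.111, adjusted P = 0.00958), and it was no longer called without C70 replicate 2 (0.27) or 3 (0.32).

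Sesn2 (chr4:132492032-132510501), a leucine sensor that restrains mTORC1, was the regulator called higher at day 1. Its day 0 values were alike, at 94.8, 85.0 and 89.4 CPM in vehicle and 91.4, 94.1, 89.9 and 90.9 CPM in C70. At day 1 it stood at 43.3, 47.6 and 46.7 CPM in vehicle and 56.3, 63.0, 59.5 and 61.5 CPM in C70, so that it was higher in every C70 sample (0.39, SE 0.080, adjusted P = 0.000215). Day 2 values overlapped, at 51.0, 51.0 and 51.5 CPM against 47.7, 46.6, 46.8 and 52.3 CPM. At day 7 they were 23.8, 26.5, 26.2 and 25.8 CPM in vehicle and 33.0, 33.5, 38.2 and 23.9 CPM in C70 (0.33, SE 0.082, adjusted P = 0.00194), with replicate 4 again apart from the other C70 samples. The day 7 call was lost without vehicle replicate 1 (0.30) and without C70 replicate 1 (0.31), 2 (0.31) or 3 (0.23).

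Trib3 and Atf4 differed at day 2. Trib3 (chr2:152337422-152344032) stood at 27.1 ± 0.622 CPM (SD, n = 3) in vehicle and 12.2 ± 1.38 CPM (n = 4) in C70 samples (-1.16, SE 0.123, adjusted P = 3.11e-09), and its day 0 levels of 87.8 ± 7.43 and 91.8 ± 4.39 CPM did not pass. For Atf4 the day 2 levels were 249.9 ± 9.88 CPM in vehicle and 177 ± 4.78 CPM in C70 (-0.50, SE 0.082, adjusted P = 6.78e-06). At day 7 Atf4 stood at 222 ± 28.5 and 277 ± 38.0 CPM (n = 4 each), a log2 fold change of 0.32 (adjusted P = 0.00118) just under the fold threshold. Atf5, a relative of ATF4, was called lower at day 2, at 260.0 ± 10.0 against 205 ± 15.3 CPM, and lost its call without vehicle replicate 3 (-0.32) or C70 replicate 4 (-0.31). Ddit3, which encodes CHOP, was not called at any day, with 59.0 ± 3.64 and 47.5 ± 1.44 CPM at day 0. Another annotated entry named Ddit3 overlaps it on the same strand, and Gm4189 and Mars overlap it on the opposite strand, so reads may be shared. In all, 5 of 7 regulators were called lower in C70 than in vehicle samples at day 2, against 13.6% of all genes, and the role mean was -0.77 ± 0.019 in vehicle and -1.38 ± 0.032 in C70 samples, in log2 units relative to day 0 vehicle samples.

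**Figure D5:**
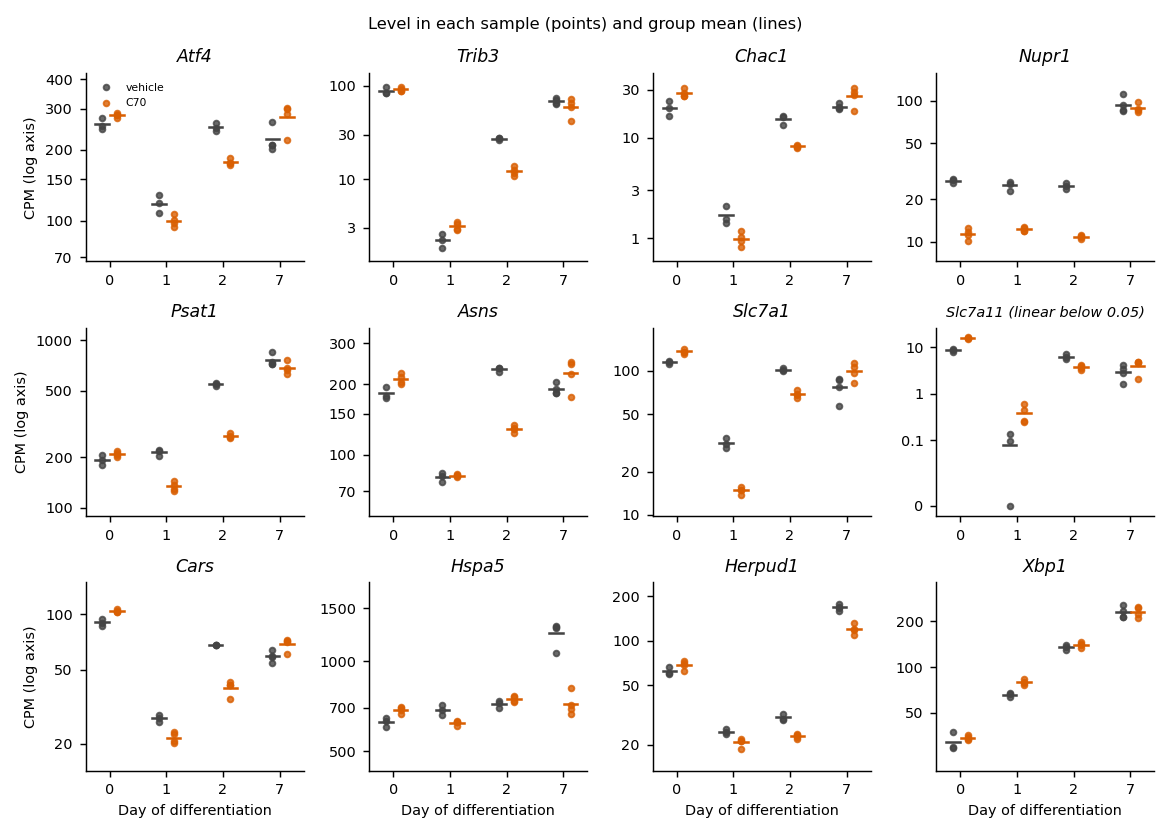
CPM on a log axis in every sample for 12 members by day, with points for samples and lines through group means of vehicle and C70. The Slc7a11 axis is linear below 0.05 so that the sample with no count can be drawn, and the lines of Trib3, Chac1 and Slc7a11 dip at day 1.

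Among the 8 genes of amino acid synthesis and one-carbon metabolism, 7 were called lower at day 2 (13.6% of all genes), 3 of them also at day 1 (7.8%). Psat1 (chr19:15904678-15947337), the second enzyme of serine synthesis, showed the largest difference. It stood at 192, 207 and 179 CPM in vehicle and 217, 199.6, 208 and 212 CPM in C70 samples at day 0, where the groups overlapped. Day 1 values were 205, 217 and 219.9 CPM in vehicle and 137, 125, 144 and 129.9 CPM in C70 (-0.67, SE 0.062, adjusted P = 3.9e-10). At day 2 they were 547, 532 and 555 CPM against 262, 281, 266 and 266 CPM (-1.02, SE 0.061, adjusted P = 1.16e-14). Both groups were higher at day 2 than at day 1, the vehicle samples by more, with an interaction of -0.34 (adjusted P = 0.0048). Day 7 values were 846, 738, 717 and 725 CPM in vehicle and 665, 761, 679 and 627 CPM in C70, which overlapped.

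Phgdh (chr3:98313170-98339990), the first enzyme of serine synthesis, was lower at day 2 and higher at day 7. Its values were 81.5, 88.0 and 75.4 CPM against 91.1, 80.4, 81.6 and 82.8 CPM at day 0, and 21.035, 21.4 and 20.7 CPM against 20.2, 23.6, 22.4 and 22.1 CPM at day 1, with vehicle first. Both days overlapped. At day 2 vehicle samples had 45.8, 45.4 and 44.9 CPM and C70 samples 34.0, 36.1, 36.2 and 38.2 CPM (-0.33, SE 0.073, adjusted P = 0.000353), a call close to the fold threshold that 10 of 39 alternatives lost, among them those without vehicle replicate 1 (-0.32) or C70 replicate 1 (-0.30). At day 7 vehicle samples had 134, 109.7, 104 and 114 CPM and C70 samples 164, 164, 167 and 145 CPM, with no overlap (0.47, SE 0.061, adjusted P = 2.18e-07). A named pseudogene, Phgdh-ps1, may share reads with it. Psph, the third enzyme, was lower at day 2, at 47.0 ± 2.03 against 29.3 ± 1.35 CPM.

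The mitochondrial folate genes differed from each other. Shmt2 (chr10:127517123-127522444), which turns serine into glycine, had day 0 values of 103, 117 and 100.3 CPM in vehicle and 121, 116, 114 and 114 CPM in C70. Day 1 values were 54.7, 57.7 and 57.0 CPM against 38.1, 42.2, 41.7 and 37.6 CPM (-0.50, SE 0.067, adjusted P = 4.04e-07), and day 2 values 111, 104 and 98.5 CPM against 70.9, 83.7, 71.1 and 78.3 CPM (-0.46, SE 0.063, adjusted P = 3.24e-07). All C70 samples were thus below all vehicle samples on both days, whereas at day 7 the values of 72.0, 63.5, 68.4 and 70.7 CPM and of 69.0, 76.9, 71.6 and 65.1 CPM overlapped. Shmt2 overlaps Ndufa4l2 on the opposite strand.

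Mthfd2 (chr6:83305691-83325908), which oxidises the folate-bound carbon unit, changed sides after day 0. It stood at 90.5, 97.01 and 85.8 CPM in vehicle and 111, 108, 107 and 107 CPM in C70 at day 0, a difference under the fold threshold although the groups were apart. At day 1 vehicle samples had 134, 149 and 129 CPM and C70 samples 97.7, 89.7, 102 and 88.1 CPM (-0.54, SE 0.064, adjusted P = 4.42e-08). At day 2 they had 275, 265 and 282 CPM and 168, 186, 174 and 175 CPM (-0.64, SE 0.062, adjusted P = 5.17e-10). By day 7 the gene was at 982, 918, 913 and 887 CPM in vehicle and 921, 981, 892 and 779 CPM in C70, so that both groups overlapped at their highest level. Mthfd1l, which releases formate, was lower at day 2, at 19.1 ± 1.95 against 13.9 ± 1.06 CPM. Aldh1l2 was higher at day 1 instead, at 18.05 ± 3.97 against 25.9 ± 2.34 CPM (0.52, SE 0.120, adjusted P = 0.000817). Asns, which makes asparagine, did not differ by the test at day 1 (80.7 ± 3.54 and 81.6 ± 1.14 CPM) and stood at 232 ± 5.71 against 129 ± 4.00 CPM at day 2 (-0.85, SE 0.070, adjusted P = 1.69e-11).

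Of the 4 transporter genes, Slc7a11 and Slc3a2 were higher at day 0, when 5.89% of all genes were called higher, and the other 2 were not called. Slc7a11 (chr3:49892526-50443614) stood at 8.70, 7.74 and 9.24 CPM in vehicle and 15.1, 16.1, 15.5 and 16.3 CPM in C70 samples, with no overlap (0.88, SE 0.162, adjusted P = 0.000184). At day 1 the counts were 3, 2 and 0 in vehicle and 5, 9, 10 and 5 in C70 samples, and the 0 allows up to 3 counts, or 0.141 CPM. Over the summed counts of 5 and 29, scaled for depth, the ratio was 4.83 with a 95% exact interval of 1.85 to 15.98 that covers counting error only. edgeR called this difference (adjusted P = 0.0279), but quantile normalization with limma gave a log2 value of 0.095, not called. The adjusted P was 0.0603 to 0.122 without vehicle replicate 2 or 3 or without C70 replicate 2 or 3. At day 2 the order was opposite, at 6.12, 5.48 and 7.01 CPM in vehicle and 4.06, 3.49, 3.29 and 3.94 CPM in C70 (-0.74, SE 0.199, adjusted P = 0.00264). Day 7 values of 1.57, 3.38, 4.02 and 2.74 CPM in vehicle and 4.45, 4.67, 4.70 and 2.06 CPM in C70 were not called. The lowest values lay in vehicle replicate 1 and C70 replicate 4.

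Slc7a1 (chr5:148327410-148399904), the carrier of cationic amino acids, had the largest fitted decrease among members at day 1. It stood at 115, 117 and 112 CPM in vehicle and 136, 142, 136 and 132 CPM in C70 samples at day 0, under the fold threshold although the groups were apart. At day 1 it was at 30.9, 34.2 and 29.3 CPM against 15, 13.8, 15.6 and 14.8 CPM (-1.09, SE 0.114, adjusted P = 4.97e-09). The difference had narrowed at day 2, with 101, 105 and 100.3 CPM against 64.8, 73.2, 68.9 and 68.0 CPM (-0.57, SE 0.094, adjusted P = 6.57e-06), and the interaction between these days was 0.52 (adjusted P = 0.013). At day 7 vehicle samples had 56.7, 87.2, 87.1 and 76.7 CPM and C70 samples 106, 96.5, 113 and 81.9 CPM, which overlapped (0.37, SE 0.088, adjusted P = 0.00129). The day 7 call was lost without vehicle replicate 1 (0.25) or C70 replicate 3 (0.30).

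Slc7a5 (chr8:121881150-121907694), the carrier of large neutral amino acids, was lower in C70 samples at days 1 and 2. Day 0 values of 174, 187 and 167 CPM in vehicle and 189, 202, 184 and 179 CPM in C70 overlapped. Day 1 values were 50.2, 52.6 and 49.7 CPM against 37.7, 39.3, 36.7 and 33.7 CPM (-0.46, SE 0.063, adjusted P = 6.29e-07), and day 2 values were 221, 216 and 219 CPM against 139, 153, 150.3 and 144 CPM (-0.58, SE 0.057, adjusted P = 6.27e-10). Each C70 sample was below each vehicle sample on both days. At day 7 the 378, 397, 409 and 420.3 CPM of vehicle and the 377, 418, 410.4 and 348 CPM of C70 samples overlapped. Slc3a2, the heavy chain that partners both SLC7A5 and SLC7A11, behaved otherwise. It was higher at day 0, at 239.6 ± 8.96 against 302 ± 6.86 CPM (0.33, SE 0.051, adjusted P = 1.3e-05), and at day 2 it stood at 210.4 ± 9.20 against 216 ± 3.53 CPM. That day 0 call lies near the fold threshold, and it was lost without vehicle replicate 3 (0.30) or C70 replicate 2 (0.32).

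The 12 tRNA synthetases shared a direction at day 2, when the fitted log2 fold change was below 0 for all 12, each with an adjusted P below 0.05 (50.7% of all genes in either direction), and 7 passed the fold threshold as well, against 13.6% of all genes called lower. Cars (chr7:143557230-143600090), which charges the tRNA of cysteine, moved most. It stood at 89.9, 93.8 and 86.6 CPM in vehicle and 103, 106, 104 and 103 CPM in C70 at day 0, apart but under the fold threshold. Day 1 values were 28.7, 26.3 and 27.5 CPM against 20.7, 23.03, 22.6 and 20.1 CPM (-0.35, SE 0.071, adjusted P = 0.000195), and day 2 values were 68.2, 68.1 and 68.1 CPM against 41.4, 42.8, 41.4 and 34.9 CPM (-0.77, SE 0.063, adjusted P = 1.33e-11). Cars was lower in every C70 sample on both days. However, the day 1 value came under the fold threshold without vehicle replicate 1 (-0.318) or C70 replicate 1 (-0.32) or 4 (-0.315). At day 7 it stood at 64.2, 54.8, 59.2 and 58.7 CPM in vehicle and 72.9, 71.9, 70.5 and 61.2 CPM in C70, not called.

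The other 6 called at day 2 were Aars, Mars, Eprs, Gars, Wars and Yars, which charge the tRNAs of alanine, methionine, glutamate with proline, glycine, tryptophan and tyrosine. The last 2 lay near the fold threshold, and without C70 replicate 1 Wars (-0.32) and Yars (-0.31) were not called, nor was Yars without replicate 2 (-0.31). Aars stood at 347 ± 10.9 CPM in vehicle and 243 ± 9.08 CPM in C70, and Mars at 106 ± 1.199 against 74.4 ± 1.84 CPM. Mars overlaps Ddit3 on the opposite strand. In the annotation 17 of the 35 members overlap a gene on the opposite strand and 10 a gene on the same strand, and whether the counting used strand is not given in the sources used here. Log2 fold changes of the uncalled Nars, Sars, Iars, Tars and Lars were -0.24, -0.22, -0.27, -0.26 and -0.26. At day 0 no synthetase was called (5.89% of all genes were called higher and 3.09% lower), and 6 had an adjusted P below 0.05 with C70 higher, against 19.8% of all genes in either direction. As a role, synthetases stood at -0.12 ± 0.020 in vehicle and -0.50 ± 0.024 in C70 samples at day 2, in log2 units relative to day 0 vehicle samples.

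Of the 4 endoplasmic reticulum genes, 3 were called lower at day 7 (4.85% of all genes), Herpud1 already at day 2, and Xbp1 was called on no day. Hspa5 (chr2:34771970-34777547), whose promoter holds the stress element printed above, had day 0 values of 648, 630.0 and 604 CPM in vehicle and 704, 698, 687 and 669 CPM in C70. At day 1 it stood at 663, 714 and 689.5 CPM against 606, 625, 627 and 632 CPM, and at day 2 at 735, 699.7 and 723 CPM against 736, 733, 768 and 762 CPM. None of these days was called. At day 7 vehicle samples had 1308, 1294, 1301 and 1062 CPM and C70 samples 716, 692, 666 and 815 CPM (-0.78, SE 0.055, adjusted P = 1.45e-12). The vehicle samples had risen well above their day 2 level, the C70 samples had stayed close to theirs, and the groups were apart. The change of the C70 effect between days 2 and 7 was -0.84 (adjusted P = 2.4e-09), opposite in sign to that of the 26 members called higher.

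Hsp90b1 (chr10:86690209-86705509), the chaperone GRP94 and the other member with a stress element match, was also lower at day 7, at 694 ± 34.9 CPM in vehicle and 524 ± 40.3 CPM in C70 samples (-0.41, SE 0.042, adjusted P = 4.11e-09). Herpud1 (chr8:94386438-94395377) was lower earlier. Its day 0 values were 59.8, 67.0 and 60.3 CPM against 68.5, 73.4, 70.6 and 62.4 CPM, and its day 1 values 25.4, 24.4 and 23.4 CPM against 18.7, 21.95, 21.2 and 21.3 CPM, neither called. At day 2 it stood at 32.3, 29.2 and 29.8 CPM in vehicle and 21.7, 23.5, 23.1 and 22.6 CPM in C70 (-0.42, SE 0.070, adjusted P = 7.31e-06). At day 7 it stood at 166, 169, 177 and 159 CPM against 119, 132, 120.3 and 109.6 CPM (-0.48, SE 0.054, adjusted P = 1.65e-08). Both days showed no overlap between the groups. Xbp1 was not called on any day, with 230.3 ± 21.04 and 232 ± 17.8 CPM at day 7, and gene counts do not show the splicing that activates it.

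The day 7 comparison depended on single libraries, and vehicle replicate 1 and C70 replicate 4 stood apart from the other libraries of their groups in several members. With both left out, a choice made after seeing the data, 12 members were called in place of 7, against 13.8% of all genes called higher and 3.58% called lower in that fit. Hspa5 (-0.81), Herpud1 (-0.44) and Hsp90b1 (-0.43) remained lower. The 9 higher ones were Atf4 (0.51), Atf5 (0.37), Chac1 (0.48), Sesn2 (0.42), Asns (0.36), Phgdh (0.60), Slc7a11 (0.44), Slc7a1 (0.33) and Cars (0.3221). Without C70 replicate 4 alone 10 were called, and without C70 replicate 3 alone 4 were. The share of all genes called in either fit is not given here. These counts therefore show only how the number of called members moved between fits.

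Genes around the members were examined in lists that hold no member apart from Lars. Among 19 genes of eIF2, its kinases, its exchange factor and its phosphatase, none was called higher on any day. Of all genes, 13.6% and 16.9% were called higher at days 1 and 2, and the shares for days 0 and 7 are given above. Called lower were 1, 2, 3 and 3 at days 0, 1, 2 and 7, against 3.09%, 7.8%, 13.6% and 4.85% of all genes. At day 7 these included Ppp1r15a, the stress-induced phosphatase subunit GADD34 (-0.52, 38.2 ± 2.13 against 26.6 ± 1.22 CPM), and Eif2b2, a subunit of the exchange factor (-0.59). Among 21 possible bZIP partners, 8 were called higher and 2 lower at day 2, against 16.9% and 13.6% of all genes. Creb3l1, an endoplasmic reticulum-bound relative of ATF6, was higher at day 2 (0.95) and day 7 (0.80). Cebpa, an adipogenic C/EBP factor, was higher at day 0 (0.39) and lower at day 1 (-0.52) and day 2 (-0.85), and Fosl2 was higher at days 0, 1 and 2 (0.42, 0.81 and 0.70).

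Other genes linked to ATF4 did not all follow the members. Of 20 measured, 8 were called lower and 2 higher at day 2, against 13.6% and 16.9% of all genes. Ero1l, an oxidase of the endoplasmic reticulum, was lower at day 2 (-1.10, 215 ± 3.42 against 100.5 ± 4.25 CPM) and at day 7 (-0.46). Pycr1, which makes proline, was higher at day 1 (1.39) and day 7 (0.64). Cdsn was higher at day 0 (1.16) and day 1 (2.98, from a low 0.821 ± 0.229 against 6.54 ± 0.687 CPM) and lower at day 7 (-1.04). Among 21 other amino acid transporters, 8 were called higher and 4 lower at day 2, against 16.9% and 13.6%. Slc7a2, a second cationic carrier, was higher on all 4 days with log2 fold changes of 0.94, 1.75, 2.08 and 1.00, whereas Slc7a1 was lower at days 1 and 2. Slc38a1 was higher at days 0, 1 and 2 (0.57, 1.32 and 1.96), and Slc6a9, a glycine carrier, was higher at day 0 (0.69) and lower at day 2 (-0.90).

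Of 23 other serine and one-carbon genes, 1 was called higher and 5 lower at day 2, against 16.9% and 13.6% of all genes, with a median fold change of 0.012 in log2 units. At day 1, 4 were called higher and 4 lower, against 13.6% and 7.8%. Bhmt, which remethylates homocysteine, was higher at day 1 (1.44), at 1.83 ± 0.317 against 4.95 ± 2.08 CPM. Gnmt, which methylates glycine, was higher at day 1 (0.93) and lower at day 7 (-1.07, 7.90 ± 0.843 against 3.78 ± 0.462 CPM). Sfxn1, the carrier that brings serine into mitochondria, was lower at day 1 (-0.52) and day 2 (-0.88, 315 ± 6.05 against 171 ± 9.83 CPM). The list of 11 other cytosolic synthetase genes includes Eef1e1, an auxiliary protein of the multisynthetase complex. None of the 11 was called at day 2, when 16.9% of all genes were called higher and 13.6% lower. Of these, 9 were below 0 and 6 had an adjusted P below 0.05, a share close to the 50.7% of all genes. At day 1 the list had 4 lower calls (7.8% of all genes), among them Eef1e1 (-0.62), Farsb (-0.38) and Vars (-0.36). The 17 mitochondrial synthetases had 5 lower calls (13.6% of all genes) and no higher call (16.9%) at day 2. Among 31 further endoplasmic reticulum genes, 6 were called lower (4.85% of all genes) and none higher (14.3%) at day 7, with Sdf2l1 (-1.40, 17.1 ± 3.48 against 6.49 ± 0.186 CPM), Creld2 (-0.80) and the haem-degrading enzyme Hmox1 (-0.67) as the largest. Of 15 genes of amino acid sensing, 2 were called higher at day 2 and 2 at day 7, against 16.9% and 14.3% of all genes, namely Sesn1 and Sesn3 (0.40 each, then 0.51 and 0.55). On the same list Depdc5, part of a complex that restrains mTORC1, was lower at day 0 (-0.33) and day 2 (-0.50), among 3 and 1 called lower (3.09% and 13.6%).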

How the data were processed

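RNA was extracted with Qiazol and the miRNeasy micro kit, and strand-specific libraries were made with the Universal plus mRNA-Seq kit. The authors aligned reads to GRCm38 (Ensembl 97) with STAR 2.7.2a and deposited raw whole-number counts per gene for 29 samples and 11959 genes. The submitters' processing notes also name edgeR 3.26.8. The counting program, its use of strand and the gene filter are not given in the sources used here. Every deposited gene reached over 1 CPM in at least 20 samples, and 11953 genes had a symbol.

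Members, gene lists and tests were chosen with earlier results of these data known. Counts were tested with edgeR 4.0.16 (R 4.3.3), using TMM factors, 1 model over the 8 groups of samples and quasi-likelihood tests of C70 against vehicle per day, of successive vehicle days and of the change in the C70 effect. P values were adjusted by Benjamini-Hochberg over all 11959 genes in each comparison. The common biological coefficient of variation was 0.0594, and depth was 16320275 to 24037170 counts. Over 39 replicate pairs the chi-square per degree of freedom was 2.66 to 46.8. Each sample was counted as a replicate, although this spread does not show that samples were separate cultures. A test on simulated day 2 data with 200 changed genes recovered 100% of 2-fold and 91% of 1.5-fold changes with 4 false calls. In the measured data 3642 genes were called at day 2. Recovery and false calls with that many changed genes were not tested.

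Values in every sample are given for members called on 2 or more days or with the largest called change of their role (13 members), and others are given by group. From each further list, up to 3 genes with the largest called change are named, and 1 such gene and 1 promoter stretch are not reported here. DESeq2 1.42.0, limma 3.58.1, other scalings, filters, thresholds, a replicate block and fits without each library were alternatives. Gene positions come from GENCODE M21 and promoters from RefSeq, both on GRCm38, and 27 of the 32 promoter windows of the listed genes continued into a GENCODE transcript of the same gene. Figures were drawn with Python 3.11.15, pandas 2.3.3 and matplotlib 3.10.9, with 0.5 added to CPM before log2 in the plots by role and of all members. Of the listed genes, Atf3 was not analysed here.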

Additional observations from a re-analysis of the deposited data

Results flagged for a closer look

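Over 175 groups of 4 samples (35 members in 5 groups), 12 single samples lay far from the other 3 of their group by Dixon's criterion, where chance at 1 in 20 gives 8.75. In day 7 vehicle replicate 1 these were Atf4 (264.3 CPM, others 202.6 to 210.7), Psat1 (846.4, others 716.9 to 737.6), Psph (37.94, others 32.4 to 32.74) and Lars (100 CPM, others 107.3 to 108.1). In day 7 C70 replicate 4 they were Phgdh (145.1 CPM, others 163.8 to 166.6), Slc7a11 (2.057, others 4.449 to 4.7), Gars (345.6, others 383.4 to 389.6) and Nars (158.9, others 180 to 183.4). Outside these libraries they were Aars in day 0 C70 replicate 2 (794.2 CPM, others 767.9 to 768.9) and in day 1 C70 replicate 3 (168.7, others 179.2 to 181.2), Wars in day 7 vehicle replicate 3 (87.95, others 84.75 to 84.85) and Hspa5 in day 7 vehicle replicate 4 (1062, others 1293 to 1308).

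The C70 effect differed between successive days by the interaction test in these members with values for every sample. From day 0 to day 1 the log2 difference was -1.26 for Chac1, 0.361 for Sesn2, -0.791 for Psat1, -0.625 for Shmt2, -0.795 for Mthfd2, -0.561 for Slc7a5, -1.34 for Slc7a1, -0.555 for Cars and -0.371 for Herpud1. From day 1 to day 2 it was -0.471 for Sesn2, -0.345 for Psat1, -0.397 for Phgdh, -2.92 for Slc7a11 (-3.57 to -0.893 over its alternatives, with day 1 vehicle counts of 3, 2 and 0), 0.518 for Slc7a1 and -0.417 for Cars. From day 2 to day 7 it was 1.12 for Nupr1, 1.28 for Chac1, 0.408 for Sesn2, 0.872 for Psat1, 0.798 for Phgdh, 0.501 for Shmt2, 0.59 for Mthfd2, 1.15 for Slc7a11, 0.534 for Slc7a5, 0.939 for Slc7a1, 0.988 for Cars and -0.841 for Hspa5.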

How the results depend on the processing

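No called value of a member reversed under an alternative. For C70 against vehicle, 1682 of 1752 checks of 45 called values kept direction and call and 70 lost the call. The thresholds moved the counts of called members most. With adjusted P alone, 14 were called at day 0, 23 at day 1 and 19 at day 7, against 4, 11 and 7, and 19.8%, 40.7% and 41.1% of all genes were. When the fold had to exceed 1.5, the C70 counts at days 0, 1, 2 and 7 were 2, 5, 9 and 1 and those of the interactions 5, 3 and 14, against 3.3%, 9.12%, 14.5% and 8.8% and 5.59%, 5.33% and 9.48% of all genes. At day 7, fits to that day alone called 4 (1 higher and 3 lower), and leaving out both libraries that stood apart called 12. Leaving out 1 replicate gave 4 to 5 calls at day 0, 9 to 12 at day 1, 20 to 23 at day 2 and 4 to 10 at day 7, 29 to 30, 26 to 29 and 19 to 20 for the vehicle steps and 12 to 17, 10 to 12 and 27 to 29 for the interactions. Quantile normalization moved the share of called genes that were higher, over all genes, from 63.6% to 50.9% at day 1, from 55.5% to 47.9% at day 2 and from 74.6% to 60.7% at day 7, and no scaling moved the median of all genes by over 0.1. The cause was not tested. Counts of members from fits to a single day, with upper-quartile scaling, with the replicate block or without 1 replicate are given without shares of all genes called. They show how the calls moved and not whether members differed from all genes.

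Between C70 and vehicle samples with the same replicate number, deviations correlated at -0.25 to 0.25 across genes. The labels do not say whether the numbers pair samples, and these correlations do not settle it. With the replicate block 4, 11, 21 and 7 members were called at the 4 days, and Cars at day 1 (-0.318) and Atf5 (-0.32) and Phgdh (-0.318) at day 2 were not. With the block in fits to a single day, day 7 had 4 calls. Slc7a11 at day 1, with 5 vehicle counts in all, is the member most limited by depth.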
